A study of Mus musculus with 12 samples.

Results

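The alcohol and aldehyde dehydrogenases described here are 9 genes, Adh1, Adh4, Adh5, Aldh1a1, Aldh1a7, Aldh1b1, Aldh2, Aldh3a2 and Aldh8a1, of the 36047 genes whose transcripts were summed. They were chosen by name with the group comparisons of these same counts already known, so their levels and fold changes are given as a description. Where the fit over all genes calls any of them, that is counted beside the same over all genes, and nothing is read from it. All 9 passed the filter on low counts, which left 14670 genes. RNA from the livers of 12 male C57Bl/6J mice was sequenced, with 3 mice in each of 4 groups. The mice had eaten their diets for 7 days. RF.Ctrl mice received a control diet with regular fat, RF.SAAR mice a regular-fat diet restricted in sulfur amino acids, HF.Ctrl mice a high-fat control diet and HF.SAAR mice a high-fat diet with the same restriction. The labels give no age and no genotype beside the strain. The paper describes the mice as adults that were given deuterium in water and deprived of food before they were killed. Total estimated counts per mouse ran from 16203094 to 21230092, the lowest and the highest both in HF.Ctrl mice.

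Alcohol dehydrogenases oxidize alcohols such as ethanol and retinol to aldehydes with NAD as the electron acceptor, and aldehyde dehydrogenases carry the aldehydes on to acids. The liver is the main site of ethanol clearance, in which cytosolic alcohol dehydrogenase makes acetaldehyde and mitochondrial Aldh2 turns it into acetate. Other members of both families act on formaldehyde bound to glutathione, on retinal, on long-chain aldehydes from lipids and on intermediates of tryptophan breakdown.

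The libraries were checked against liver markers in CPM, the estimated counts scaled to a common library size after adjustment by the trimmed mean of M values (TMM). All 7 hepatocyte markers were detected, with Alb the most abundant at a mean of 57838 CPM, and their sum ran from 72806 CPM in RF.SAAR replicate 3 to 95832 CPM in RF.Ctrl replicate 2. Pancreatic acinar markers were also present, 12 of 12 detected, with Amy2a5 the most abundant and no marker at 0 in every mouse. Their summed level was 1071, 43.3 and 35.2 CPM in RF.Ctrl, 16.3, 49.4 and 32.0 CPM in RF.SAAR mice, 1327, 4881 and 35.0 CPM in HF.Ctrl, and 36.8, 2972 and 14407 CPM in HF.SAAR, for replicates 1, 2 and 3. HF.SAAR replicate 3 and HF.Ctrl replicate 2 stood highest. The 9 pericentral hepatocyte markers, mostly Cyp2e1, summed to between 8261 and 9370 CPM in the regular-fat mice and between 10559 and 12497 CPM in the high-fat mice. The 7 periportal markers summed to between 3108 and 5276 CPM, and under restriction over both fat levels Cyp2f2 and Hal were lower and Hsd17b13 higher in edgeR's quasi-likelihood test, with log2 fold changes of -0.51 ± 0.072 (SE, adjusted p = 8.2e-04), -0.56 ± 0.15 (adjusted p = 0.040) and 0.63 ± 0.068 (adjusted p = 1.2e-04). Sums ran from 258 to 425 CPM for 7 Kupffer cell markers, from 261 to 306 for 6 endothelial, from 220 to 290 for 6 stellate, from 35.2 to 62.0 for 5 cholangiocyte and from 1.74 to 19.3 CPM for 4 adipocyte markers, with Clec4f, Ptprb, Dcn, Spp1 and Cfd the most abundant. The 5 erythroid markers, with Hbb-bs the most abundant, summed to between 444 and 672 CPM in the control mice and between 243 and 553 CPM in the restricted mice. Of these, Alas2 was lower under restriction over both fat levels, by a log2 fold change of -1.15 ± 0.091 (SE) and an adjusted p of 9.0e-06. Alas2, Cyp2f2 and Hsd17b13 were also called on regular fat and on high fat separately, each in the same direction. Also called over both fat levels were the stellate marker Lrat (-0.59 ± 0.14, adjusted p = 0.018), which was called on regular fat too (-0.86 ± 0.19, adjusted p = 0.041), the hepatocyte marker Fgb (-0.26 ± 0.058, adjusted p = 0.017), the cholangiocyte marker Spp1 (-0.46 ± 0.089, adjusted p = 0.0077) and the endothelial marker Lyve1 (0.55 ± 0.11, adjusted p = 0.0075). The part of these markers in the diet differences given next was not tested.

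Compared by the deposited TPM, a level per length that adds up to the same total in every mouse, the 9 genes covered a wide range of levels. Aldh2 stood highest with a mean of 1448 TPM over the 12 mice and rank 80 among all genes, followed by Adh1 at 1165 TPM and rank 92. Aldh1a1 came next with a mean level of 688 TPM, then Adh5 with 288 TPM and Aldh8a1 with 171 TPM. Aldh1a7 at 123 TPM, Adh4 at 117 TPM and Aldh3a2 at 116 TPM could not be ordered, since Aldh1a7 exceeded Adh4 in 6 of 12 mice and Adh4 exceeded Aldh3a2 in 5 of 12. Aldh1b1 was lowest with a mean level of 23.5 TPM, ranging from 16.2 to 34.5 TPM. Among the other pairs of neighbours in this order, the first exceeded the second in 12 of 12 mice. Aldh8a1 exceeded Adh4 in 11 of 12, with 141 TPM against 151 TPM in HF.Ctrl replicate 1. HF.Ctrl replicate 2, the mouse with the second highest acinar sum, had the lowest TPM of the 12 mice for 7 of the 9 genes, all except Adh4 and Adh5. Estimated counts behind these values ran from 643 to 1333 for Aldh1b1 and from 21517 to 35113 for Adh1.

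The 3 alcohol dehydrogenase genes lie on the plus strand of chromosome 3 (GRCm38), in the order Adh7, Adh1, Adh6a, Adh6b, Adh4 and Adh5. Adh1 spans bases 138260991 to 138290698, Adh4 138415466 to 138430892 and Adh5 138443093 to 138455499. Over aligned coding bases, Adh1 was 65.6% identical to Adh4 and 67.0% to Adh5, and Adh4 and Adh5 were 64.8% identical. None of the 31-base words of the most abundant Adh4 and Adh5 transcripts occurs in another gene's listed transcripts, and for Adh1 44 of 1462 do, so the counts of the 3 genes rest largely on sequence of their own. The stretches before Adh4 and Adh5 are shown because these neighbours differ widely in base composition there. Both come from the RefSeq promoter table on GRCm38.p6, which lists 8 of the 9 genes and not Aldh2, are on the plus strand and are written 5′ to 3′. Adh4 runs over chr3:138415247-138415465 (219 bases, ended before the annotated gene) and Adh5 over chr3:138442843-138443092 (250 bases). Capitals mark CCAAT in Adh4 and GGGCGG in Adh5, each here read on the other strand as ATTGG and CCGCCC.
Adh4: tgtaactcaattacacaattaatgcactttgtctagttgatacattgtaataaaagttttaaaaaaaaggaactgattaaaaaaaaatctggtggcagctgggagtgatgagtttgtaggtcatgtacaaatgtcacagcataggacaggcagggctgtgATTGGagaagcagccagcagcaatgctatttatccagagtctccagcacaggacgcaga
Adh5: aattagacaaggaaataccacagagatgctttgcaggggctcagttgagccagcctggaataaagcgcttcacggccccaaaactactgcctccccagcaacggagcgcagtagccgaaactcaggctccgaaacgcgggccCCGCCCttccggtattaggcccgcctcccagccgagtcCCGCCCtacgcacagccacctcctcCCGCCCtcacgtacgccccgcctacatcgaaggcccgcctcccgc

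Over the full 250 bases before the RefSeq start, Adh5 held 63.6% G and C with 21 CG pairs, and Adh4 41.6% with 1 CG pair. The median over all 32851 listed promoters was 52.4% with 6 CG pairs. Adh1 had 44.8% and 5 pairs, but its window lies within the annotated gene and runs 91 bases into its most abundant transcript, so it is not set against the others. Letters were searched on both strands and the share of all promoters holding each is given as a description. GGGCGG, the GC box core, is in 32.7% of promoters and occurred 3 times before Adh5, starting 108, 70 and 45 bases upstream. CCAAT is in 33.8% of promoters and occurred 1 time before Adh4, from 90 to 86 bases upstream. Neither TGATGCAA, the core of an amino acid response element (0.791% of promoters), nor TGACNNNGC, the core of an antioxidant response element (10.2%), occurred in the searched windows of the 8 listed genes, which says only that these letters are absent there. Adh5 and Aldh1a1 have a second listed promoter each, 5893 and 109378 bases from the start of the most abundant transcript, and these letters were absent there too.

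Sulfur amino acid restriction was compared with the control diet at each fat level, to ask how the diet acts on a regular-fat and on a high-fat background. Adh4, the class II enzyme, which oxidizes retinol and ethanol, was the gene of the 9 that differed most. Its level in RF.Ctrl was 103, 139 and 118 CPM, and in RF.SAAR 72.5, 67.0 and 66.7 CPM. In HF.Ctrl it was 140, 105 and 150 CPM, and in HF.SAAR 74.8, 81.3 and 77.4 CPM. On this scale all 3 restricted mice lay below all 3 control mice at both fat levels, and the restricted mice were close together, with an SD of 3.30 CPM on regular fat and 3.29 CPM on high fat against 18.2 and 23.4 CPM in the controls. The log2 fold change was -0.80 ± 0.14 (SE, n = 3 mice a group) on regular fat, to 0.573 of control, and -0.76 ± 0.14 on high fat, to 0.590 of control. The difference between these effects was 0.04 ± 0.19 on the log2 scale, and from -0.097 to 0.15 in fits without 1 mouse. In bulk liver, fewer cells of a type and less RNA per cell cannot be told apart. Without HF.Ctrl replicate 2 and HF.SAAR replicate 3, the mice of highest acinar level, a setting added after seeing the data, the log2 fold changes were -0.80 and -0.90.

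Adh1, the class I enzyme that carries most hepatic ethanol oxidation, measured 1689, 1796 and 1538 CPM in RF.Ctrl mice and 1292, 1384 and 1150 CPM in RF.SAAR. On high fat it measured 1469, 1434 and 1558 CPM in the controls and 1247, 1454 and 1345 CPM under restriction. The regular-fat groups did not overlap, while on high fat HF.SAAR replicate 2 lay above HF.Ctrl replicate 2. The log2 fold change was -0.39 ± 0.096 on regular fat and -0.14 ± 0.096 on high fat, with a difference between the effects of 0.25 ± 0.14. The high-fat value was -0.088 without HF.SAAR replicate 1.

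Adh5, the class III enzyme that oxidizes the adduct of formaldehyde and glutathione and reduces S-nitrosoglutathione, measured 425, 410 and 408 CPM in RF.Ctrl mice and 336, 374 and 286 CPM in RF.SAAR. In HF.Ctrl it measured 430, 468 and 369 CPM, and in HF.SAAR 332, 407 and 332 CPM. Again the regular-fat groups were apart and the high-fat groups overlapped, through HF.SAAR replicate 2 and HF.Ctrl replicate 3. The log2 fold change was -0.32 ± 0.12 on regular fat and -0.24 ± 0.12 on high fat.

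**Figure D1:**
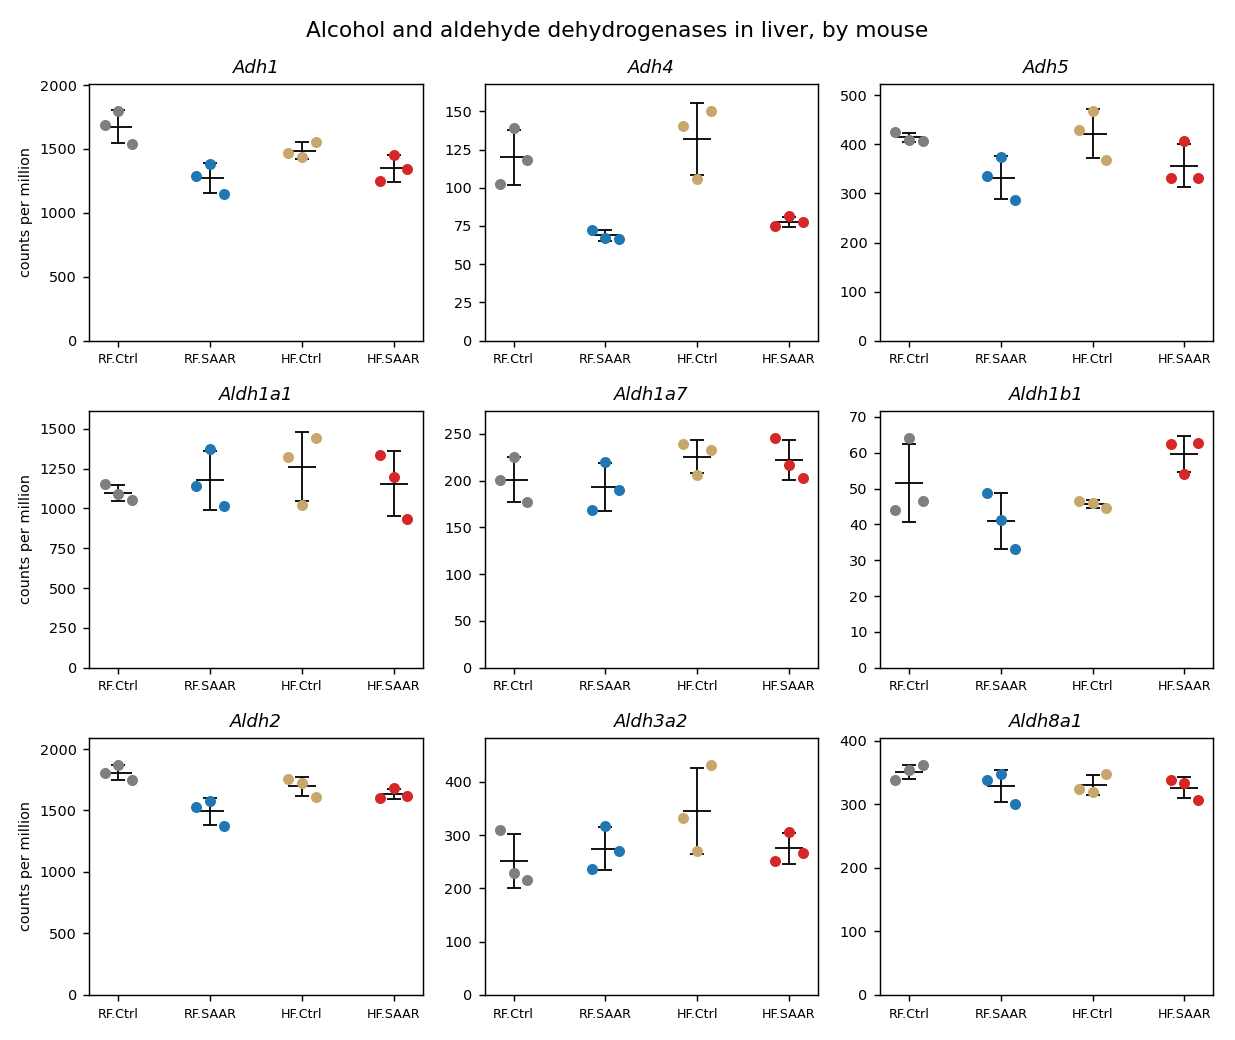
Level of each of the 9 genes in CPM on the TMM-scaled library (vertical axis, from 0) for each mouse (points), by group along the horizontal axis, with the group mean and SD of 3 mice. The restricted mice lie below the controls for Adh4 at both fat levels, while Aldh1a1 and Aldh1a7 overlap throughout the diet comparisons.

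Aldh2 and Aldh1b1 are the mitochondrial aldehyde dehydrogenases of the 9, with 70.6% identical aligned coding bases, and Aldh2 is the main enzyme for acetaldehyde. Aldh2 measured 1808, 1866 and 1749 CPM in RF.Ctrl mice and 1530, 1581 and 1370 CPM in RF.SAAR, with no overlap. On high fat it measured 1753, 1723 and 1611 CPM in the controls and 1600, 1681 and 1618 CPM under restriction, which overlap. The log2 fold change was -0.28 ± 0.081 on regular fat and -0.05 ± 0.080 on high fat (-0.090 to -0.030 in fits without 1 mouse). Aldh1b1, which acts on acetaldehyde and retinal, measured 44.1, 64.0 and 46.5 CPM in RF.Ctrl, 48.8, 41.2 and 33.0 CPM in RF.SAAR mice, 46.5, 46.0 and 44.5 CPM in HF.Ctrl and 62.6, 54.0 and 62.8 CPM in HF.SAAR. Its restricted mice lay above the controls on high fat and overlapped them on regular fat. Its log2 fold change was -0.33 ± 0.15 on regular fat and 0.39 ± 0.15 on high fat, and the difference between the effects, 0.72 ± 0.22, was the largest of the 9 genes. Without RF.Ctrl replicate 2, its highest regular-fat mouse, that difference was 0.53, and the regular-fat value was -0.14.

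Aldh1a1 oxidizes retinal to retinoic acid in the cytosol, and Aldh1a7 is its close rodent paralogue. They lie next to each other on chromosome 19, Aldh1a1 over bases 20492715 to 20643465 on the plus strand and Aldh1a7 over 20692953 to 20727562 on the minus strand. Their coding sequences have 1377 of 1503 bases in common (91.6%). Of the 2023 words of 31 bases in the Aldh1a1 transcript, 281 occur in Aldh1a7. Such a word alone does not tell these genes apart, and how many reads this leaves ambiguous was not tested. The first 90 coding bases of each are shown as an example of where the pair differs. In this stretch no run of 31 bases is the same in both. They are written 5′ to 3′, with the 5 bases that differ in capitals, from the GENCODE transcripts.
Aldh1a1 coding: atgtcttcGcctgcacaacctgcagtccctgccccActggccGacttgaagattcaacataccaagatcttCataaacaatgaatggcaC
Aldh1a7 coding: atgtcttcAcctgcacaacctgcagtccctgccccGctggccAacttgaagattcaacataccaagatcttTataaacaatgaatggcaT

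Of the 100 bases before the RefSeq starts of Aldh1a1 and Aldh1a7, 6 differ. These stretches run 7 and 6 bases into the most abundant transcripts, and that of Aldh1a1 lies within the annotated gene, which has models that begin farther upstream. Both windows, and that of Aldh8a1 on chromosome 10, hold the octamer ATGCAAAT, found in 1.6% of all promoters on either strand and in 3 of the 8 listed genes, though not at the second promoter of Aldh1a1. It was searched after these sequences had been seen, so the count is a description. It lies from 56 to 49 bases upstream in Aldh1a1 and Aldh1a7 and from 58 to 51 in Aldh8a1. Shown are 60 bases of each, 5′ to 3′ on the gene's strand, with the octamer in capitals: chr19:20601888-20601947 (plus) for Aldh1a1, chr19:20727577-20727636 (minus) for Aldh1a7 and chr10:21377220-21377279 (plus) for Aldh8a1. They are shown because these genes share the octamer, though it was picked from these sequences. With only 6 of 100 bases different, Aldh1a1 and Aldh1a7 are not separate instances of it.
Aldh1a1 octamer: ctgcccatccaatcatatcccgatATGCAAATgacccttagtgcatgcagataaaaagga
Aldh1a7 octamer: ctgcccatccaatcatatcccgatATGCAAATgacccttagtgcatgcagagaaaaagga
Aldh8a1 octamer: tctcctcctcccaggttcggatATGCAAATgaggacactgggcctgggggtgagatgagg

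Aldh1a1 ranged from 1052 to 1153 CPM in RF.Ctrl, from 1014 to 1375 in RF.SAAR, from 1019 to 1441 in HF.Ctrl and from 933 to 1338 CPM in HF.SAAR. The groups overlapped at both fat levels, and the log2 fold changes were 0.10 ± 0.15 on regular fat and -0.13 ± 0.15 on high fat. Aldh1a7 ranged from 169 CPM in RF.SAAR to 245 CPM in HF.SAAR over the 12 mice, with log2 fold changes of -0.06 ± 0.12 and -0.03 ± 0.12. Aldh8a1, which oxidizes an aminomuconate semialdehyde in tryptophan breakdown, ranged from 300 to 361 CPM, the narrowest span of the 9 in relation to its level on this scale, with log2 fold changes of -0.10 ± 0.089 and -0.02 ± 0.089. For these 3 genes the diet difference was below or near its error at both fat levels. In fits without 1 mouse it ran on regular and high fat from -0.030 to 0.20 and -0.26 to 0.0058 for Aldh1a1, from -0.17 to 0.029 and -0.11 to 0.031 for Aldh1a7, and from -0.14 to -0.028 and -0.047 to 0.021 for Aldh8a1.

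Aldh3a2, the fatty aldehyde dehydrogenase of the endoplasmic reticulum and peroxisome, measured 309, 228 and 216 CPM in RF.Ctrl mice, 237, 318 and 269 in RF.SAAR, 332, 271 and 430 in HF.Ctrl and 251, 306 and 267 CPM in HF.SAAR. The groups overlapped in every comparison, and HF.Ctrl replicate 3 was the highest mouse. Its log2 fold change was 0.13 ± 0.18 on regular fat and -0.33 ± 0.18 on high fat, with a difference between the effects of -0.45 ± 0.25. Without HF.Ctrl replicate 3 the high-fat value was -0.13 and the difference between the effects -0.26, and without RF.Ctrl replicate 1 that difference was -0.63. The regular-fat value was 0.0094 without RF.SAAR replicate 2 and 0.30 without RF.Ctrl replicate 1.

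**Figure D2:**
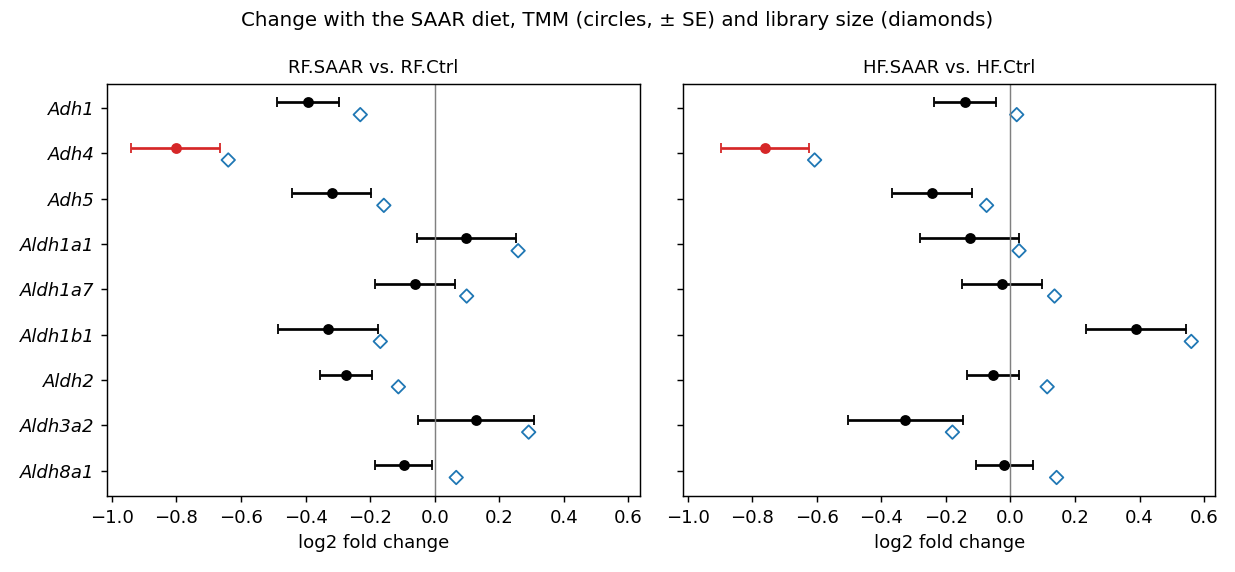
Log2 fold change under restriction (horizontal axis) of each of the 9 genes on regular fat (left) and high fat (right), as circles with bars of 1 SE under TMM scaling, red where called, and as open diamonds under scaling by library size alone. Adh4 lies farthest below 0, with circles at -0.80 and -0.76, and the diamonds sit to the right of the circles, on the other side of 0 for Aldh1a7 and Aldh8a1 on regular fat and for Adh1, Aldh1a1, Aldh1a7, Aldh2 and Aldh8a1 on high fat.

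The counts that follow are given beside the same over all genes, and nothing is read from them, since the genes were chosen on these comparisons. A gene is counted as called at an adjusted p under 0.05 (edgeR quasi-likelihood test, Benjamini-Hochberg over 14670 genes). On regular fat, 1 of the 9 genes was called under restriction, Adh4, where 1.49% of all genes were. On high fat it was again Adh4, 1 of 9, where 1.97% of all genes were called. Averaged over both fat levels, Adh1 and Adh4 were called, 2 of 9, where 6.92% of all genes were, and the log2 fold changes were -0.27 ± 0.068 and -0.78 ± 0.097. Adh5, with -0.28 ± 0.087, was not called there. The 4 genes whose groups did not overlap on regular fat, Adh1, Adh4, Adh5 and Aldh2, were lower in every restricted mouse, as were 9.7% of all genes, and 0 of 9 were higher in every restricted mouse, where 8.51% of all genes were. On high fat 1 of 9 was lower in every restricted mouse, Adh4 (8.97% of all genes), and 1 higher, Aldh1b1 (8.89%). These counts hold on the TMM-scaled library. By the deposited TPM, which lacks the TMM adjustment, Adh4 alone was lower in every restricted mouse on regular fat. That is 1 of 9, where 2.11% of all genes were. The lowest control had 109.73 TPM for Adh4 and the highest restricted mouse 109.38 TPM. Higher in every restricted mouse were 3 of 9, Aldh1a1, Aldh3a2 and Aldh8a1, where 26.6% of all genes were. On high fat 0 of 9 were lower in TPM, where 1.33% of all genes were, with HF.Ctrl replicate 2 at 91.9 TPM for Adh4 below HF.SAAR replicates 1 and 3, and 3 of 9 were higher, Adh5, Aldh1b1 and Aldh2, where 27.7% were. The median log2 fold change of the 9 genes was -0.28 on regular fat, -0.13 on high fat and -0.10 over both, and that of all genes was -0.0013, -0.0014 and -0.0039.

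Some of these calls are lost without single mice. Since the genes were chosen on these comparisons, a call that is kept is no sign of stability. On regular fat Adh4 was not called without RF.Ctrl replicate 2 (log2 fold change -0.68) or RF.SAAR replicate 3 (-0.77), and on high fat not without HF.Ctrl replicate 1 (-0.72) or HF.SAAR replicate 1 (-0.73). Over both fat levels Adh1 lost its call in 8 of 12 such fits, without RF.Ctrl replicates 1 (-0.26) or 2 (-0.24), RF.SAAR 1 (-0.27) or 3 (-0.23), HF.Ctrl 1 (-0.27) or 3 (-0.25), or HF.SAAR 1 (-0.24) or 3 (-0.27), and also without both mice of highest acinar level (-0.28). Adh5 was called over both fat levels without RF.SAAR replicate 2 (-0.33), HF.Ctrl replicate 3 (-0.33) or HF.SAAR replicate 2 (-0.34). Scaling by library size alone raised the median gene by 0.16 on regular fat and 0.17 on high fat and over both, and the values of the 9 genes with it. Under that scaling Adh4 and Adh5 were still below 0 in these 3 comparisons and Adh4 was not called on regular fat (-0.64), nor Adh1 over both (-0.11). Under library size alone the signs turned for Aldh1a7 and Aldh8a1 on regular fat, for Adh1, Aldh1a1, Aldh1a7, Aldh2 and Aldh8a1 on high fat, and for Aldh1a1, Aldh1a7, Aldh2, Aldh3a2 and Aldh8a1 over both. By DESeq2, Adh1 and Aldh2 were called beside Adh4 on regular fat, where 4.8% of the genes it gave an adjusted p were, Adh4 alone on high fat (4.65%), and Adh5 and Aldh2 beside Adh1 and Adh4 over both (9.03%).

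High fat was compared with regular fat within each diet, and the interaction compared the diet effect between fat levels. Under restriction, Aldh1b1 was higher in every high-fat mouse, with a log2 fold change of 0.54 ± 0.15, as were Adh4, with 0.18 ± 0.14, and Aldh2, with 0.13 ± 0.080 (0.067 without RF.SAAR replicate 3). That is 3 of 9 genes higher in every high-fat mouse, where 5.47% of all genes were, and 0 of 9 lower in each, where 4.68% were. In the control mice 0 of 9 were higher in every high-fat mouse, where 4.09% of all genes were, and 0 of 9 lower, where 4.42% were. By TPM 0 of 9 were higher (3.12% of all genes) and 0 lower (6.03%) in every high-fat mouse under restriction, and in the control mice 0 of 9 were higher (1.18%) and 2 lower, Adh5 and Aldh2 (10%). The largest difference there was that of Aldh3a2, 0.46 ± 0.18, and it overlapped and was 0.26 without HF.Ctrl replicate 3. By edgeR 0 of 9 genes were called for fat under restriction (0.0477% of all genes), for fat under the control diet (0%) or for the interaction (0.00682%). At an unadjusted p under 0.05 by edgeR it was 1 of 9 in each of these 3 comparisons, where 5.59, 3.59 and 3.15% of all genes were. By DESeq2 0 of 9 were called at an adjusted p under 0.05, where 0.564, 0.212 and 0.106% of the genes it gave an adjusted p were, and at an unadjusted p under 0.05 it was 1, 1 and 2 of 9, where 3.6, 2.36 and 2.16% of the genes with a p were. The high-fat mice also had the higher pericentral sums given above, and the part of these in the fat differences was not tested.

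How each gene's TPM divides over its transcripts was not used to choose the genes, and was tested by an exact two-sided permutation of the diet labels within fat level (400 relabelings, smallest p 0.005), over 7 of the 9 genes with a second transcript at a mean of at least 1 TPM. For Adh4 the coding transcript Adh4-201, with 9 exons, had a mean of 89.6 TPM. Beside it stand Adh4-203, a noncoding transcript of 257 bases at 17.4 TPM, and the coding Adh4-202, of 695 bases at 9.86 TPM. Few reads lie behind the short ones. Estimated counts per mouse ran from 11.7 to 48.7 for Adh4-203, from 39.8 to 159 for Adh4-202 and from 1181 to 2517 for Adh4-201. Adh4-201 held 74.9, 75.1 and 71.2% of Adh4 TPM in RF.Ctrl, 74.9, 73.5 and 75.7% in RF.SAAR, 72.1, 77.7 and 81.1% in HF.Ctrl and 82.4, 85.8 and 80.2% in HF.SAAR. Its mean share was 75.3% under control and 78.8% under restriction, a difference of 3.42 points with an exact p of 0.095 and an adjusted p of 0.665, so the test was not passed. That difference was 2.01 points without HF.SAAR replicate 2, between means over all remaining mice of a diet. It thus also shifts with the balance of fat levels, as the mean TPM share was 74.7% in RF.SAAR and 82.8% in HF.SAAR. Measured as a share of estimated counts, which weights long transcripts, the difference was 1.30 points (93.4 against 94.7%), with an exact p of 0.005, the smallest possible, and an adjusted p of 0.035. By that measure RF.SAAR and HF.SAAR each lay above their controls in every mouse, and the outcome thus depends on the measure. Most of the difference in count share was opposite Adh4-202, which held 4.98% of counts under control and 3.81% under restriction, while Adh4-203 held 1.64 and 1.51%. In fits without 1 mouse, run after seeing the data, the count share passed in 6 of 12. It did not pass with any 1 of the RF.Ctrl or HF.SAAR mice left out, at adjusted p-values up to 0.49. The difference was lowest without HF.SAAR replicate 2, at 0.95 points. Each such difference is between means over all remaining mice of a diet, so leaving out 1 mouse unbalances the fat levels. Within each diet the count share was higher in every high-fat mouse than in every regular-fat mouse. Leaving out an RF.Ctrl or HF.SAAR mouse thus lowers the difference through fat as well. Whether the losses come from these mice was not tested.

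**Figure D3:**
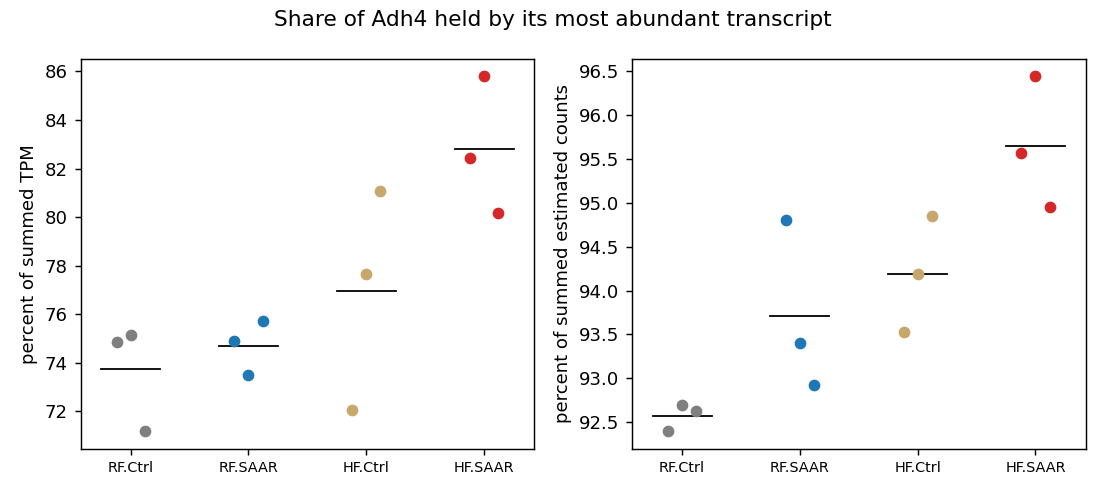
Share of Adh4 held by its most abundant transcript in each mouse, by group, as percent of summed TPM (left) and of summed estimated counts (right), with group means as lines. The vertical axes do not start at 0, and the mean differences under restriction are 3.42 and 1.30 points.

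For the other 6 genes tested the mean difference in TPM share lay between -0.42 points for Aldh2 and 2.93 points for Aldh3a2. The exact p-values ran from 0.35 to 0.86. Without RF.SAAR replicate 2, which leaves the fat levels unbalanced, the difference of Aldh3a2 was 1.43 points. Aldh2 rests on several models: its transcript Aldh2-202 held 39.2% of TPM under control and 38.8% under restriction. Its short transcript Aldh2-207, of 623 bases, had a mean of 545 TPM against 565 TPM for Aldh2-202. The main transcripts of Adh1 and Adh5 differed by -0.056 and -0.057 points between the diets.

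By the root mean square difference of centred log2 CPM profiles over the 12 mice, the genes nearest to Adh4 were Tbccd1 (0.123), Stxbp6 (0.132) and Zfp799 (0.142). For Aldh1b1 they were Ift81 (0.145), Faap20 (0.159) and Rfc4 (0.168), and for Adh5 Fam92a (0.0537), Sirt3 (0.0621) and Cd302 (0.0645). These 3 are the genes of the 9 with the largest mean absolute log2 fold change over the diet comparisons, and the likeness is a description over 14669 other genes.

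The further lists of genes were also chosen with earlier results of these data known, and their counts are a description. Of 19 further genes of both families, 14 were tested, and 2 were called over both fat levels, where 6.92% of all genes were. Aldh1l2, the mitochondrial formyltetrahydrofolate dehydrogenase of folate metabolism, rose under restriction. It measured 0.515, 1.13 and 0.972 CPM in RF.Ctrl mice and 2.72, 3.98 and 5.24 CPM in RF.SAAR mice, and 1.09, 1.61 and 0.549 CPM in HF.Ctrl and 3.65, 3.57 and 3.96 CPM in HF.SAAR, so that every restricted mouse lay above every control. Its log2 fold change over both fat levels was 1.97 ± 0.27 (adjusted p = 7.3e-04), though at a mean of 0.763 TPM it is far below the 9 genes. Aldh7a1, which works in lysine breakdown, fell, from 524, 553 and 507 CPM in RF.Ctrl to 367, 414 and 334 CPM in RF.SAAR mice and from 541, 517 and 520 CPM in HF.Ctrl to 396, 438 and 368 CPM in HF.SAAR. Every restricted mouse lay below every control, with a log2 fold change of -0.45 ± 0.070 (adjusted p = 0.0018). Adh7, the neighbour of Adh1, had -0.32 ± 0.12 and an adjusted p of 0.16. Untested for low counts were Aldh3a1, Adh6a, Adh6b, Aldh3b2 and Aldh3b3. On regular fat Aldh1l2 (2.18 ± 0.39, adjusted p = 0.014) and Aldh7a1 (-0.51 ± 0.099, adjusted p = 0.021) were both called, and on high fat only Aldh1l2 (1.77 ± 0.38, adjusted p = 0.030), with Aldh7a1 at an adjusted p of 0.064.

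**Figure D4:**
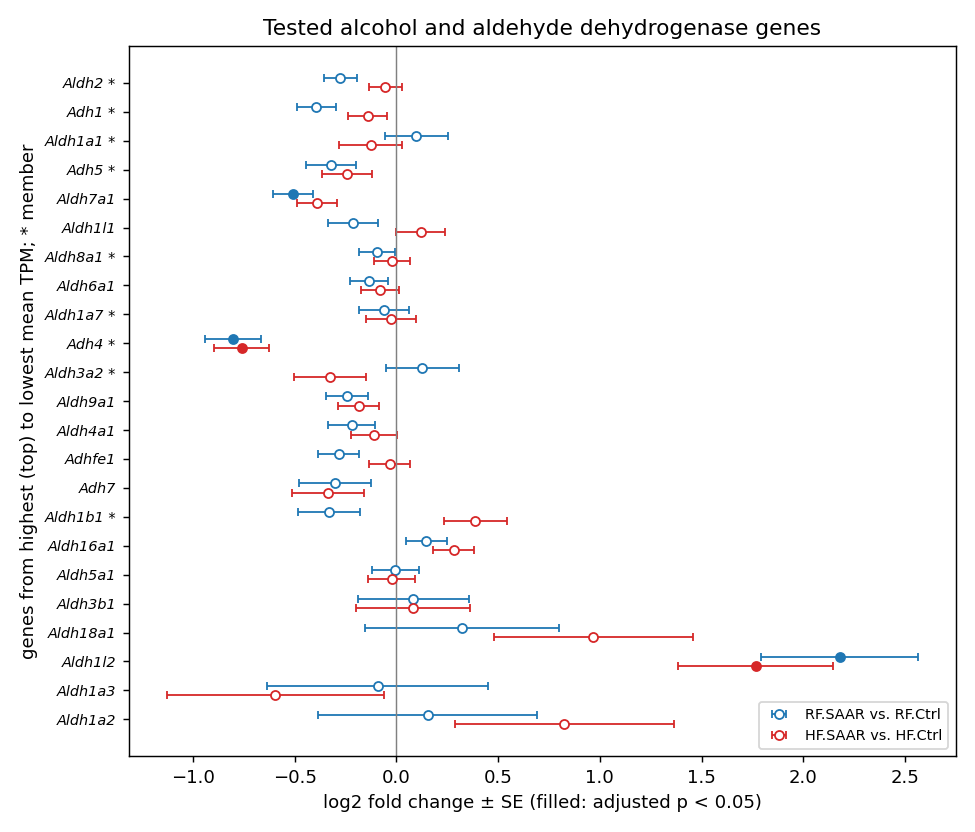
Log2 fold change under restriction (horizontal axis, with bars of 1 SE) of the 9 genes (asterisks) and the 14 other tested genes of both families, on regular fat (blue) and high fat (red), ordered by mean TPM from the top, with filled points where the adjusted p was under 0.05. Aldh1l2, near the low end of the TPM order, lies highest at 2.18 and 1.77, and Adh4 lies lowest at -0.80 and -0.76.

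Among genes that handle ethanol outside the alcohol dehydrogenases or use acetate, 3 of 5 were called over both fat levels (6.92% of all genes). Acss2, which makes acetyl-CoA from acetate in the cytosol, fell from 150, 128 and 175 CPM in RF.Ctrl to 96.1, 96.7 and 84.4 CPM in RF.SAAR mice, and from 108, 109 and 103 CPM in HF.Ctrl to 74.6, 79.9 and 64.5 CPM in HF.SAAR (log2 fold change -0.63 ± 0.087, adjusted p = 7.4e-04). All 3 restricted mice lay below the controls at each fat level. Cat, the peroxisomal catalase, fell by 0.30 ± 0.056 on the log2 scale (adjusted p = 0.0060), but this was -0.13 with an adjusted p of 0.21 under library size alone. Acss1, the mitochondrial acetyl-CoA synthetase, rose by 1.39 ± 0.39 on the log2 scale (adjusted p = 0.046) at levels of 0.460 to 3.8 CPM. That call was lost in 8 of 12 fits without a mouse, without RF.Ctrl replicates 2 or 3, RF.SAAR 3, HF.Ctrl 1, 2 or 3, or HF.SAAR 1 or 3, at adjusted p-values from 0.072 to 0.13, and also with effective length offsets (1.10, adjusted p = 0.090) and without both mice of highest acinar level (1.20, adjusted p = 0.17). The list's median log2 fold change was -0.23 over both fat levels, against -0.0039 for all genes.

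Carbonyl reductases and aldehyde oxidases, which share aldehyde substrates with the 9 genes, moved both ways: of 20 tested, 3 rose and 4 fell over both fat levels, where 6.92% of all genes were called, and the median was -0.0075. Cbr1, a carbonyl reductase, rose by 0.63 ± 0.10 on the log2 scale (adjusted p = 0.0026), the aldehyde oxidase Aox1 by 0.59 ± 0.10 (adjusted p = 0.0043) and the aldo-keto reductase Akr1c19 by 0.46 ± 0.082 (adjusted p = 0.0044). The aldehyde oxidase Aox3 fell, with a log2 fold change of -0.76 ± 0.13 (adjusted p = 0.0034), from 787, 915 and 860 CPM in RF.Ctrl to 684, 408 and 573 CPM in RF.SAAR mice and from 905, 799 and 896 CPM in HF.Ctrl to 424, 390 and 583 CPM in HF.SAAR. Akr1c6 (-0.31 ± 0.061, adjusted p = 0.0088) and Akr1c14 (-0.44 ± 0.11, adjusted p = 0.029), both aldo-keto reductases, fell too, as did Cbr4 (-0.29 ± 0.074, adjusted p = 0.030), which falls outside the naming rule and was chosen after its values were seen. Akr1c6 was not called under library size alone (-0.14, adjusted p = 0.075) or without both mice of highest acinar level (-0.26, adjusted p = 0.065). Akr1c14 was not called without RF.Ctrl replicates 1 or 3, RF.SAAR 2 or 3, HF.Ctrl 1 or 3, or HF.SAAR 1, 2 or 3, at adjusted p-values from 0.052 to 0.073, nor under library size alone (-0.27, adjusted p = 0.17). Cbr4 was not called without RF.Ctrl 1 or 3, RF.SAAR 1 or 3, HF.Ctrl 2, or HF.SAAR 1 or 3, at adjusted p-values from 0.055 to 0.085, nor under library size alone (-0.13, adjusted p = 0.24), with effective length offsets (-0.22, adjusted p = 0.26) or without both mice of highest acinar level (-0.23, adjusted p = 0.15).

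Of 18 genes of retinoid handling, which supply and clear the substrates of Adh1, Adh4 and Aldh1a1, 1 rose and 2 fell over both fat levels (6.92% of all genes were called), with a median of -0.10. Lrat, which esterifies retinol and is also among the stellate cell markers (summed at 220 to 290 CPM), fell by 0.59 ± 0.14 on the log2 scale (adjusted p = 0.018), and the carotenoid-cleaving Bco2 fell by 0.45 ± 0.10 (adjusted p = 0.020). Rdh13, a mitochondrial retinol dehydrogenase, rose by 0.53 ± 0.13 (adjusted p = 0.023). Without 1 mouse, Lrat lost its call with RF.SAAR replicate 3 left out (-0.56, adjusted p = 0.054). Bco2 lost it without RF.Ctrl replicate 2 (adjusted p = 0.051) or HF.SAAR replicate 1 (adjusted p = 0.057). Rdh13 lost it without RF.SAAR replicate 2 (adjusted p = 0.051) or 3 (adjusted p = 0.052), HF.Ctrl replicate 1 (adjusted p = 0.067) or HF.SAAR replicate 2 (adjusted p = 0.058), and with effective length offsets (0.52, adjusted p = 0.073). Lrat and Bco2 were not called under library size alone, at adjusted p-values of 0.080 and 0.10. Cyp26b1, which breaks down retinoic acid, was called on regular fat (-0.89 ± 0.20, adjusted p = 0.040) and had 0.74 ± 0.20 on high fat (adjusted p = 0.088), and the interaction, 1.63 ± 0.28, had an adjusted p of 0.29. Its regular-fat call was lost without RF.SAAR replicate 3 (-0.81, adjusted p = 0.18) and in 7 further fits of that kind, as well as under library size alone (adjusted p = 0.079) and with effective length offsets (0.080). Rdh9, of the retinol dehydrogenase family, was the gene of the lists called for fat under restriction, at 0.82 ± 0.11 (adjusted p = 0.018), a call lost without RF.SAAR replicate 2 (adjusted p = 0.067) or 3 (0.12) or HF.SAAR replicate 2 (0.13) or 3 (0.081), under library size alone (0.071), with only the compared groups (0.18) or without both mice of highest acinar level (0.11).

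Of 8 partners in formaldehyde and fatty aldehyde metabolism, 1 fell over both fat levels (6.92% of all genes were called), Pecr, a peroxisomal enoyl-CoA reductase (-0.36 ± 0.093, adjusted p = 0.033), and the median was -0.01. Pecr was not called without RF.Ctrl replicates 1 or 2, RF.SAAR 1 or 3, HF.Ctrl 1 or 2, or HF.SAAR 1 or 3, at adjusted p-values from 0.053 to 0.091, nor under library size alone (-0.20, adjusted p = 0.11) or without both mice of highest acinar level (-0.32, adjusted p = 0.11). In all, 16 of the 65 list genes tested were called over both fat levels, where 6.92% of all genes were. The lists were chosen with earlier results of these data known, so nothing is read from these counts. The over-both calls of 7 genes, Aldh1l2, Aldh7a1, Acss2, Akr1c19, Cbr1, Aox1 and Aox3, were kept in every alternative run. Because of how the lists were chosen, a call that is kept is no sign of stability here either. Of the 65, 6 were called on regular fat and 6 on high fat, where 1.49% and 1.97% of all genes were called, and each of the 12 was lost without at least 1 mouse. Among the fits without 1 mouse, the highest adjusted p on regular fat came without RF.SAAR replicate 3 for Acss2 (0.064), Aldh1l2 (0.059), Aldh7a1 (0.11), Lrat (0.19) and Cyp26b1 (0.18), and without RF.Ctrl replicate 3 for Aox1 (0.16). On high fat it came without HF.SAAR replicate 3 for Acss2 (0.14) and Cat (0.15), without HF.Ctrl replicate 1 for Aldh1l2 (0.12), Akr1c19 (0.16) and Cbr1 (0.065), and without HF.SAAR replicate 1 for Aox3 (0.10). Other settings also lost 4 of the regular-fat calls beside that of Cyp26b1: library size alone for Aldh7a1 (0.057) and Lrat (0.11), effective length offsets for Aldh1l2 (0.11), Lrat (0.058) and Aox1 (0.055), and only the compared groups for Aldh7a1 (0.062). On high fat they lost all 6: library size alone for Cat (0.28), Acss2 (0.081) and Aox3 (0.080), effective length offsets for Aldh1l2 (0.17) and Acss2 (0.067), only the compared groups for Aldh1l2 (0.059), Cat (0.12), Acss2 (0.056), Akr1c19 (0.072) and Cbr1 (0.086), and without both mice of highest acinar level Aldh1l2 (0.061), Cat (0.18), Acss2 (0.21) and Akr1c19 (0.16).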

How the data were processed

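Liver RNA of 12 mice was sequenced, and the authors quantified each mouse with kallisto against Ensembl transcripts after cutadapt and FastQC. The deposited estimated counts are expected read numbers per transcript, the deposited TPM values scale them by length, and the deposited effective lengths are in bases. Of 118489 transcripts, 116816 matched the GENCODE annotation of GRCm38 without version numbers, and the 1673 others held 1.08% of counts. Estimated counts were summed per gene, rounded, and fitted in R 4.3.3 with edgeR 4.0.16 and limma 3.58.1 (TMM, filterByExpr by group, robust quasi-likelihood, 12 mice, a coefficient per group), with Benjamini-Hochberg adjustment over 14670 genes. The SE is the log2 fold change over the square root of F. The median prior degrees of freedom were 5.51 and the common biological coefficient of variation 0.215. For 3 mice a group the smallest exact p of a permutation is 0.10. Transcript shares and figures used Python 3.11.15, numpy 2.4.6, pandas 2.3.3, biopython 1.88 and matplotlib 3.10.9. Alternatives were RLE factors, library size alone, no filter, at least 10 counts in every mouse, effective length offsets, only the compared groups, DESeq2 1.42.0, shares of estimated counts and leaving out each mouse. Leaving out both mice of highest acinar level, and leaving out each mouse from the Adh4 count share, were added after seeing the data. Named are the 9 genes, the called genes of each list (the 6 with the smallest p where more were called) and the 3 nearest profiles of the 3 genes that differed most. The genes and lists were chosen with earlier results of these data known.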

Additional observations from a re-analysis of the deposited data

How the results depend on the processing

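Over all alternatives, 1047 of 1062 log2 fold changes of the 9 genes moved by less than the SD between mice. The 15 others moved by more, all under library size alone, which by its construction carries the shift of the median gene. It moved the share of called genes that were higher from 40.4 to 84.5% on regular fat, from 51.2 to 88.9% on high fat and from 46.5 to 88.8% over both. The cause of the other changes was not tested.

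The counts of all genes called depended on the settings. On regular fat 218 became 425 under library size alone and 591 by DESeq2, and 87 to 244 without 1 mouse, lowest without RF.Ctrl replicate 3. On high fat 289 became 719 under library size alone, 190 with only the compared groups, 595 by DESeq2, 141 without both mice of highest acinar level, and 110 to 310 without 1 mouse, lowest without HF.Ctrl replicate 1. Over both, 1015 became 2449 under library size alone and 1362 by DESeq2, and 655 to 968 without 1 mouse, lowest without HF.Ctrl replicate 1. For the interaction, 1 became 0 with effective length offsets or without both acinar-high mice, 16 by DESeq2 and 0 to 2 without 1 mouse. For fat under restriction, 7 became 4 under library size alone, 14 with no filter, 85 by DESeq2, 0 without both acinar-high mice and 1 to 7 without 1 mouse. For fat under the control diet, 0 by edgeR (527 at an unadjusted p under 0.05) became 1 under library size alone, 3 with no filter, 2 with only the compared groups, 31 by DESeq2 and 0 to 2 without 1 mouse.

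Of the 9 genes, 1 was called on regular fat (1.49% of all genes), 0 under library size alone (2.9%), 3 by DESeq2 (4.8%) and 0 to 1 without 1 mouse (0.579 to 1.62%). On high fat it was 1 (1.97%), and 0 to 1 without 1 mouse (0.732 to 2.07%). Over both it was 2 (6.92%), and 1 under library size alone (16.7%) or without both acinar-high mice (4.9%), 4 by DESeq2 (9.03%) and 1 to 3 without 1 mouse (4.36 to 6.45%).

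The Adh4 transcript share passed its test by estimated counts (1.30 points). In fits added after seeing the data, it still passed without RF.SAAR replicates 1 (1.28), 2 (1.56) or 3 (1.65). It also passed without HF.Ctrl replicates 1 (1.33), 2 (1.46) or 3 (1.59), but not with any 1 of the other 6 mice left out. This split follows the fat levels, which each left-out mouse unbalances between the diets, so it is not read as a property of single mice. By estimated counts the differences of Adh5 (0.0096) and Aldh3a2 (-0.30) reversed. Without 1 mouse the difference in TPM share ran from 2.01 to 4.57 points for Adh4 and 1.43 to 4.21 for Aldh3a2. The lowest of each was over 1.5 times below the value with all mice. It ran from -0.25 to 0.10 points for Adh1, -0.24 to 0.066 for Adh5 and -0.12 to 0.089 for Aldh1a1. For Aldh2 it ran from -1.61 to 0.12 and for Aldh8a1 from -0.22 to 0.76, and these last 5 each crossed 0. By either measure, the differences without 1 mouse are between means over all remaining mice of a diet, with the fat levels unbalanced. Part of each shift can therefore come from fat. By estimated counts without 1 mouse, the differences of Adh1, Adh5, Aldh1a1 and Aldh3a2 crossed 0. Aldh1b1, with 643 to 1333 estimated counts a mouse, is the least deeply counted of the 9 genes.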
